A study of Mus musculus with 17 samples.

Results

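The genes described here are 7 cadherins and 3 catenins, chosen by name: *Cdh1*, *Cdh2*, *Cdh3*, *Cdh4*, *Cdh6*, *Cdh11*, *Cdh13*, *Ctnna1*, *Ctnnb1* and *Ctnnd1*. They are 10 of the 55450 genes in the deposited bulk table, and 6 of them (*Cdh1*, *Cdh2*, *Cdh11* and the catenins) passed the filter for testing, which asked for a TPM value (transcripts scaled for length and library) of at least 1 in at least 2 of 14 libraries. The other 4, all cadherins, were near or at 0 and are described by their values.

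Classical cadherins are calcium-dependent adhesion proteins that bind a cadherin on the facing membrane and so hold neighbouring cells together at adherens junctions. Inside the cell their tails bind β-catenin and p120-catenin, and α-catenin links the complex to actin. Mammary epithelium is built on E-cadherin, while N-cadherin and cadherin-11 are known from neural and mesenchymal cells, and β-catenin is also the nuclear effector of Wnt signalling.

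The study asked how cancer cells isolated from different organs of tumor-bearing mice differ, and the cadherin and catenin genes are here set against organ of origin and CD44 status. All cells came from female FVB/NJ MMTV-PyMT mice, in which the MMTV promoter drives the polyoma middle T oncogene in mammary epithelium, so every group carried this transgene. Cultures were grown for weeks in conditions that favour cancer cells over fibroblasts and were then sorted as EpCAM-high with low or high surface CD44, a hyaluronan receptor. Bulk RNA-seq covered 7 groups of 2 libraries. The first was cultured cells from the primary tumor of the mammary fat pad (MFP), for which no CD44 status is given, and the others were the CD44low and CD44high cells of LN (lymph node), BM (bone marrow) and lung. Both libraries of a group were clonal isolates of different mice, so p-values measure the spread between these isolates. Single-cell RNA-seq was made on lung-derived CD44high (lungH), lung-derived CD44low (lungL) and LN-derived CD44high (lymphH) cells, with 1 deposited table each. The study describes 2 clonal isolates for each of these. The lungH and lungL labels name rep1 and the lymphH label names no replicate, so it is unclear whether a table holds 1 isolate or both. Each table was used as 1 library.

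Some libraries went against their labels, which bears on every result in lung-derived cells. *Epcam* had 315 to 941 TPM in the 10 MFP, LN and BM libraries, but it was listed at 0 in both lung-derived CD44low libraries and had 0.23 and 0.86 TPM in the lung-derived CD44high libraries. The summed TPM of 8 epithelial genes lay between 2080 and 7010 outside lung, at 15.9 and 87.5 in lung-derived CD44high cells and at 1.74 and 2.36 in lung-derived CD44low cells, where *Epcam*, *Krt8*, *Krt19*, *Esrp1* and *Grhl2* were at 0. The 9 fibroblast genes summed to 4710 and 5120 TPM in lung-derived CD44low cells, 85.7 and 195 TPM in lung-derived CD44high cells and at most 19.9 TPM elsewhere. Endothelial genes stayed at or below 0.21 TPM in sum in all groups. *Cd44* RNA did not follow the sort either, with 147 and 82.7 TPM in LN-derived CD44low, 49.0 and 52.3 TPM in LN-derived CD44high, 12.2 and 21.6 TPM in lung-derived CD44low and 21.9 and 12.1 TPM in lung-derived CD44high cells, and it was highest in MFP, at 400 and 210 TPM. Replicates of BM-derived CD44low cells were the least alike (Pearson r = 0.908 over all genes tested, against 0.935 to 0.980 in the other groups). In bulk RNA, fewer cells of a type and less RNA per cell cannot be told apart.

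The cadherin expressed most differed between groups. It was the same in LN- and BM-derived cells, while lung-derived CD44low and CD44high cells differed from each other. MFP expressed mostly *Cdh1*, LN- and BM-derived cells expressed *Cdh2* above *Cdh1*, lung-derived CD44high cells expressed *Cdh2* almost alone, and lung-derived CD44low cells expressed mostly *Cdh11*. Among the summed TPM of 20 cadherin genes, the 7 above and 13 relatives, *Cdh1* held 62.5% and 82.2% in the MFP libraries and 18.8% to 45.2% in the 8 LN and BM libraries. *Cdh2* held 93.1% and 95.4% in lung-derived CD44high cells, and *Cdh11* held 69.4% and 64.0% in lung-derived CD44low cells. The summed level itself was highest in MFP, at 222 and 194 TPM, and lowest in lung-derived CD44low cells, at 24.6 and 32.4 TPM. These shares compare levels per transcript length, as TPM allows, and carry no test.

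**Figure D1:**
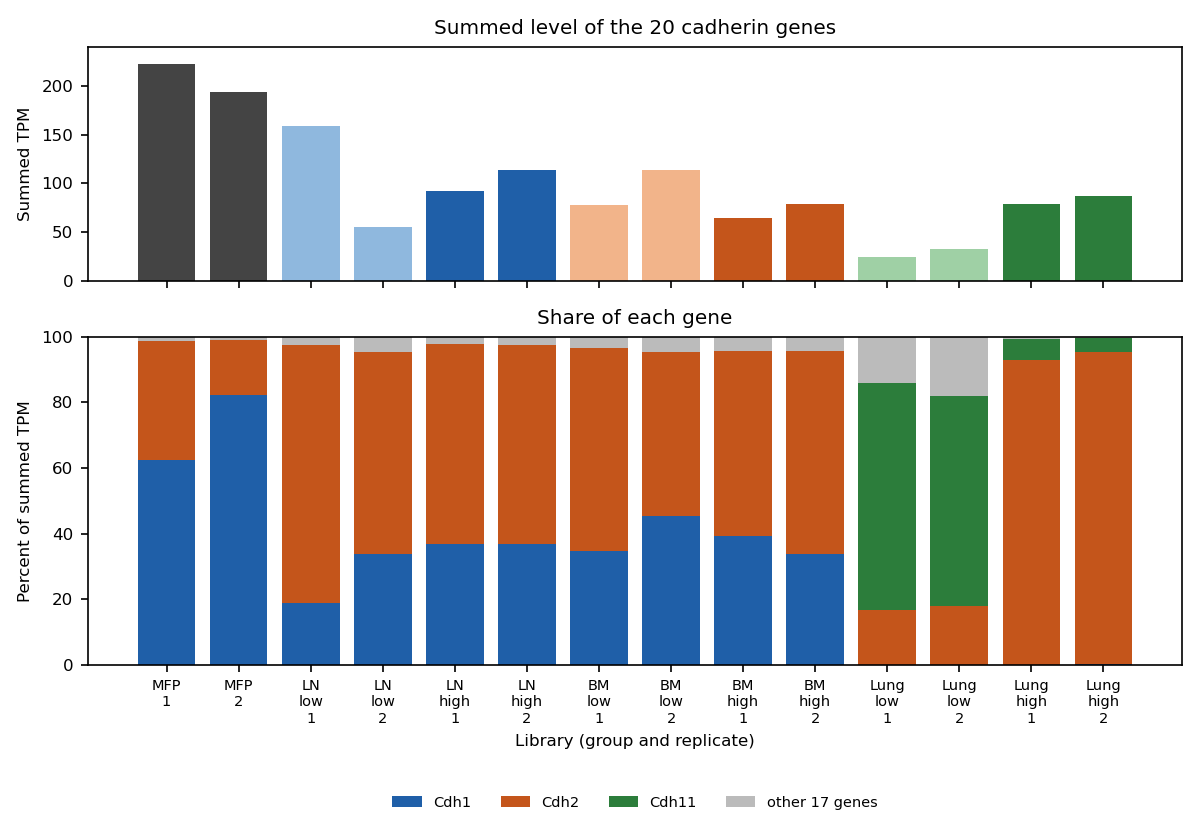
Upper panel, summed TPM of 20 cadherin genes (y axis) in each of the 14 bulk libraries (x axis, low and high standing for CD44low and CD44high). Lower panel, the percent of that sum held by *Cdh1*, *Cdh2*, *Cdh11* and the other 17 genes: *Cdh1* was the largest part only in the 2 MFP libraries, and *Cdh11* only in the 2 lung-derived CD44low libraries.

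*Cdh1* (ENSMUSG00000000303.12, chromosome 8 of mm10, 106603351 to 106670246, plus strand) encodes E-cadherin, the cadherin of epithelial cells. It had 139 and 159 TPM in MFP. The LN-derived libraries had 29.9 and 18.7 TPM (CD44low) and 34.0 and 41.8 TPM (CD44high), and the BM-derived libraries 26.99 and 51.5 TPM (CD44low) and 25.5 and 26.6 TPM (CD44high). The lung-derived libraries were listed at 0, 0 and 0 TPM, with 0.03 TPM in the second CD44high library. Both MFP libraries lay above all 8 LN and BM libraries, and these lay above all 4 lung libraries, without overlap. Within LN and BM the order of the group means was BM CD44low, LN CD44high, BM CD44high and LN CD44low. The libraries of the first pair in that order overlapped, as did those of the last pair, while LN CD44high and BM CD44high did not. CD44high differed from CD44low by 0.65 in LN (95% interval -0.06 to 1.37, adjusted p = 0.545) and by -0.50 in BM (95% interval -1.22 to 0.21, adjusted p = 0.641).

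Against MFP, *Cdh1* was the only one of the 6 tested genes called in LN- and BM-derived cells. A gene was called at an absolute log2 fold change over 2 with an adjusted p under 0.05 (limma, Benjamini-Hochberg over 15348 genes). It fell by 2.60 on the log2(TPM + 1) scale in LN-derived CD44low cells (standard error 0.32, adjusted p = 0.000441), which made 1 called gene of the 6 tested, against 4.79% of all genes. In BM-derived CD44high cells it fell by 2.47 (standard error 0.32, adjusted p = 0.000445), again 1 of 6, against 7.67% of all genes. In LN-derived CD44high and BM-derived CD44low cells, *Cdh1* differed from MFP by -1.95 (95% interval -2.67 to -1.23, adjusted p = 0.00206) and -1.96 (95% interval -2.68 to -1.25, adjusted p = 0.00189) on the log2 scale, short of the fold threshold, so that 0 of 6 genes were called, against 6.12% and 7.16% of all genes, while 2 of 6 (*Cdh1* and *Ctnna1*) had an unadjusted p under 0.05 in each. All genes tested had a median log2 fold change of -0.18, -0.30, -0.04 and -0.34 in LN CD44low, LN CD44high, BM CD44low and BM CD44high cells. After TPM were divided by the median ratio between libraries, which brought these medians to between 0.02 and 0.11, the changes of *Cdh1* were -2.29, -1.42, -1.68 and -1.91, and the call in BM-derived CD44high cells was lost. Without the first MFP library, *Cdh1* was called in LN-derived CD44high (-2.05) and BM-derived CD44low cells (-2.06) as well, and so it was without the second library of either group (-2.09 and -2.42). Without the first BM CD44low library the difference there was -1.51 (adjusted p = 0.00513), and with the 4 libraries compared fitted alone its adjusted p was 0.0804. The call in LN-derived CD44low cells was lost when only the 4 libraries compared were fitted (adjusted p = 0.0561).

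In lung-derived cells *Cdh1* was called lower than in MFP in both groups (adjusted p = 8.17e-08 in CD44low and adjusted p = 2.45e-07 in CD44high cells, limma), and no fold change is given because the libraries were listed at or next to 0. The direct comparison of the 4 lung with the 8 LN and BM libraries left MFP out of the means compared, although both MFP libraries entered the estimate of the spread. There *Cdh1* had a mean of 31.9 TPM in LN and BM and was called lower in lung (adjusted p = 2.98e-08, and 3.66e-07 with only the lung, LN and BM libraries in the fit). The fitted value was -4.97 with a pseudocount of 1 and -8.16 with 0.1, so it has no meaning as a fold change.

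The 3 genes most like *Cdh1* over the 14 bulk libraries, among 9436 genes with a mean of at least 5 TPM, were *St14* (Pearson r = 0.994 of log2(TPM + 1)), *Cldn4* (r = 0.991) and *Large2* (r = 0.990). *St14* encodes matriptase, a membrane serine protease of epithelia, *Cldn4* a claudin of tight junctions and *Large2* a glycosyltransferase. *Cldn4* had 469 and 505 TPM in MFP, 33.4 to 107 TPM in LN and BM and at most 0.07 TPM in lung. Such correlations describe libraries that share group and organ, and carry no test.

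*Cdh2* (ENSMUSG00000024304.14, chromosome 18 of mm10, 16588877 to 16809246, minus strand) encodes N-cadherin, the cadherin of neural tissue and of many mesenchymal cells. The MFP libraries had 80.8 and 32.5 TPM. It had 125 and 33.9 TPM in LN-derived CD44low, 56.3 and 69.4 TPM in LN-derived CD44high, 47.98 and 57.1 TPM in BM-derived CD44low and 36.5 and 48.9 TPM in BM-derived CD44high cells. In lung-derived cells it had 4.11 and 5.85 TPM in the CD44low and 73.3 and 83.5 TPM in the CD44high libraries. The 2 lung CD44low libraries stood below the other 12. Both lung CD44high libraries lay above all libraries of LN CD44high, BM CD44low and BM CD44high cells, and both LN CD44high libraries lay above both of BM CD44high cells. The libraries of LN CD44low, which covered 33.9 to 125 TPM, spanned every library of the other groups outside lung CD44low but the second of MFP, and those of MFP, at 32.5 and 80.8 TPM, overlapped with each of them.

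In lung-derived cells *Cdh2* was the only one of the 6 genes called between CD44high and CD44low, against 11.3% of all genes tested. It was 3.74 higher on the log2 scale in CD44high cells (standard error 0.56, adjusted p = 0.000705), at 78.4 ± 7.24 against 4.98 ± 1.23 TPM (SD, n = 2 in each). Against MFP, *Cdh2* fell by 3.15 in lung-derived CD44low cells (standard error 0.56, adjusted p = 0.00132; -2.50 without the first and -3.79 without the second MFP library) and differed by 0.60 in lung-derived CD44high cells (95% interval -0.65 to 1.84, adjusted p = 0.456). The CD44 difference in lung was larger than that in LN by 3.81 (standard error 0.79, adjusted p = 0.0079) and than that in BM by 4.05 (standard error 0.79, adjusted p = 0.00611). The value against LN was 2.88 without the first and 4.73 without the second LN CD44low library, and the call held in both fits. *Cdh2* was again the 1 gene of 6 called in each of these tests of the difference, against 10.4% and 8.66% of all genes. Within LN and within BM, CD44high and CD44low cells differed in *Cdh2* by -0.06 (95% interval -1.31 to 1.18) and -0.30 (95% interval -1.55 to 0.94), and 0 of the 6 genes were called, against 0.208% and 0.104% of all genes. The 8 myoepithelial or basal genes summed to 694 and 742 TPM in lung-derived CD44low against 40 and 52.9 TPM in lung-derived CD44high cells, with 594 and 656 TPM in MFP and 16.4 to 67.3 TPM in LN and BM. In MFP the sum was almost all *Krt14*, at 594 and 655 TPM, with *Acta2* at 0.06 and 0 TPM. In lung-derived CD44low cells the sum was mostly *Acta2*, the smooth muscle actin that myofibroblasts also express, at 657 and 711 TPM against 1.36 and 0.56 TPM in lung-derived CD44high cells, while the keratins *Krt5*, *Krt14* and *Krt17* were at or below 0.06 TPM in both. The part of these genes in the lung results of *Cdh2* and *Cdh11* was not tested.

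The ratio of *Cdh1* to *Cdh2* TPM was above 1 only in MFP, at 1.72 and 4.89. It lay between 0.239 and 0.902 in the 8 LN and BM libraries, and it was 0 in 3 lung libraries and 0.000359 in the fourth. No difference between BM- and LN-derived cells was detectable in either gene: *Cdh1* differed by 0.06 (95% interval -0.45 to 0.57) and *Cdh2* by -0.44 (95% interval -1.32 to 0.44) between the 4 BM and the 4 LN libraries, with 0 of 6 genes called against 0.397% of all genes. The genes most like *Cdh2* over the 14 libraries were *Pcyox1l* (r = 0.966), *Prmt3* (r = 0.940), a protein arginine methyltransferase, and *Nol11* (r = 0.937), a nucleolar protein of ribosome production. None of the 3 is a cadherin partner by name, and each had its lowest values in the 2 lung CD44low libraries.

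**Figure D2:**
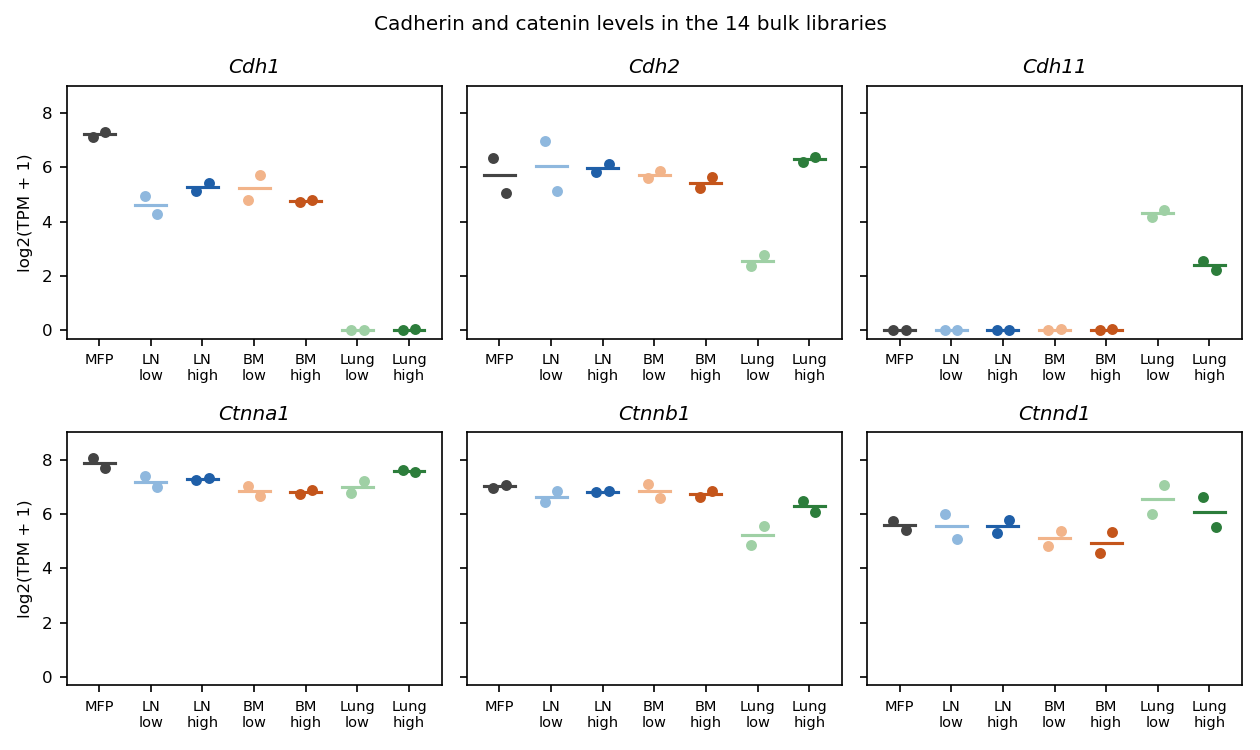
Levels of the 6 tested genes as log2(TPM + 1) on a shared y axis, by group on the x axis (low and high standing for CD44low and CD44high). Each point is 1 library, replicate 1 on the left, and each bar is the mean of the 2: *Cdh1* is at 0 in lung, *Cdh2* is lowest in lung CD44low, *Cdh11* leaves 0 only in lung, and the catenins are present in all 14 libraries.

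*Cdh11* (ENSMUSG00000031673.6, chromosome 8 of mm10, 102632095 to 102785642, minus strand) encodes cadherin-11, also called OB-cadherin, known from osteoblasts and fibroblasts. It had 17.1 and 20.8 TPM in lung-derived CD44low and 4.95 and 3.70 TPM in lung-derived CD44high cells. The 10 MFP, LN and BM libraries had between 0 and 0.03 TPM. All 4 lung libraries stood above the other 10, and both CD44low above both CD44high libraries.

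*Cdh11* was called higher than MFP in lung-derived CD44low cells, by 4.29 (standard error 0.19, adjusted p = 7.82e-08), and in lung-derived CD44high cells, by 2.39 (standard error 0.19, adjusted p = 9.72e-06). With *Cdh1* and *Cdh2* this made 3 of 6 genes called in lung-derived CD44low cells, against 18.8% of all genes tested, of which 11.2% were higher and 7.62% lower. In lung-derived CD44high cells 2 of 6 genes were called, *Cdh11* higher and *Cdh1* lower, against 13.5% of all genes, 5.42% higher and 8.03% lower. The same 2 genes were called in lung against LN and BM, where *Cdh11* was 3.34 higher (standard error 0.12, adjusted p = 1.33e-08), against 12.7% of all genes. Since the MFP, LN and BM libraries were next to 0, these values grew with a pseudocount of 0.1, to 7.43, 5.32 and 6.36. Between the lung-derived groups, *Cdh11* differed by -1.91 (standard error 0.19, adjusted p = 4.05e-05), lower in CD44high cells and just short of the fold threshold, which it passed without the first library of either group (-2.04 and -2.08). The lung CD44 difference in *Cdh11* differed from that in LN by -1.89 and from that in BM by -1.90 (adjusted p = 0.000795 and 0.000803), both short of the fold threshold. With *Cdh11* next to 0 in LN and BM, no CD44 difference could be seen there, so these values repeat the lung difference.

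The genes most like *Cdh11* were *Chodl*, which encodes chondrolectin (r = 0.9996), *Cpt1c*, a carnitine palmitoyltransferase of the brain (r = 0.998), and *Dcn*, which encodes decorin, a proteoglycan of connective tissue (r = 0.995). *Dcn* had 4091 and 4315 TPM in lung-derived CD44low, 166 and 78.9 TPM in lung-derived CD44high and at most 1.75 TPM in other libraries. The fibroblast gene sum given above was highest in the same libraries as *Cdh11*, and its part in that result was not tested.

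The remaining 4 cadherins were not tested. *Cdh3* (ENSMUSG00000061048.8), which encodes the P-cadherin of basal epithelium and lies next to *Cdh1* on chromosome 8 of mm10 (106510891 to 106557297), had at most 0.20 TPM, reached in an MFP library. *Cdh13* (ENSMUSG00000031841.19, chromosome 8, 118283733 to 119324921) encodes T-cadherin, which is anchored by a lipid and has no tail for catenins. It had 0.20 and 0.50 TPM in lung-derived CD44low cells and at most 0.04 TPM elsewhere. *Cdh4* (ENSMUSG00000000305.12, chromosome 2, 179442431 to 179899373), which encodes R-cadherin, was listed at 0 in all 14 libraries, and *Cdh6* (ENSMUSG00000039385.5, chromosome 15, 13028701 to 13173675), which encodes K-cadherin, at 0 in 13 and at 0.03 TPM in the first lung CD44low library.

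The catenins were expressed in every library, and none was called in any of the 13 comparisons, whose background shares are given beside the cadherins. *Ctnna1* (ENSMUSG00000037815.7, chromosome 18 of mm10, 35118859 to 35254779, plus strand) encodes αE-catenin, which links the complex to actin. The MFP libraries had 268 and 208 TPM. It had 166 and 125 TPM in LN-derived CD44low, 152 and 158 TPM in LN-derived CD44high, 129 and 99.5 TPM in BM-derived CD44low and 107 and 116 TPM in BM-derived CD44high cells. In lung-derived cells it had 109 and 146 TPM in the CD44low and 196 and 187 TPM in the CD44high libraries. Both MFP libraries lay above the other 12. Differences from MFP were -1.05 in BM-derived CD44low (adjusted p = 0.00828), -1.08 in BM-derived CD44high (adjusted p = 0.00654) and -0.90 in lung-derived CD44low cells (adjusted p = 0.00877), all within the fold threshold. Without the first MFP library these were -0.87, -0.89 and -0.72, and none of the 3 kept an adjusted p under 0.05 (0.0702, 0.0568 and 0.0725). That of BM CD44low was also lost with only the groups compared in the fit (adjusted p = 0.105), that of BM CD44high without its first library (-1.02, adjusted p = 0.0507), and that of lung CD44low without its first library (-0.69, adjusted p = 0.0699). After median-ratio scaling both BM differences no longer had an adjusted p under 0.05, at -0.76 (adjusted p = 0.0554) and -0.51 (adjusted p = 0.192).

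*Ctnnb1* (ENSMUSG00000006932.17, chromosome 9 of mm10, 120929216 to 120960507, plus strand) encodes β-catenin, the partner shared by cadherins and Wnt signalling. The MFP libraries had 124 and 135 TPM. It had 84.9 and 113 TPM in LN-derived CD44low, 110 and 115 TPM in LN-derived CD44high, 136 and 94.7 TPM in BM-derived CD44low and 97.5 and 115 TPM in BM-derived CD44high cells. The lung-derived libraries had 27.7 and 46.6 TPM (CD44low) and 88.6 and 66.0 TPM (CD44high). The 2 lung CD44low libraries were below the other 12, and the lung CD44high libraries reached into the range of LN.

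*Ctnnb1* was lower than MFP by 1.82 on the log2 scale in lung-derived CD44low cells (standard error 0.28, adjusted p = 0.000626), past the threshold at -2.18 without the second lung CD44low library, and its difference was -0.75 in lung-derived CD44high cells (adjusted p = 0.0661). In lung as a whole it was 1.02 lower than in LN and BM (adjusted p = 0.000679). Between the lung-derived groups it was 1.07 higher in CD44high cells (adjusted p = 0.0183), which was 0.70 and 0.86 without the first CD44low or the first CD44high library (adjusted p = 0.14 and 0.12), and with only these 4 libraries in the fit its adjusted p was 0.114. Of its exonic bases, 759 (14.6%) lie opposite exons of *Ulk4*, listed at 0 to 12.9 TPM, and the counting is not stated to use strand.

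*Ctnnd1* (ENSMUSG00000034101.14, chromosome 2 of mm10, 84600071 to 84650765, minus strand) encodes p120-catenin, which keeps cadherins at the membrane. The MFP libraries had 52.1 and 42.0 TPM. It had 63.5 and 33.1 TPM in LN-derived CD44low, 38.7 and 54.5 TPM in LN-derived CD44high, 27.1 and 40.6 TPM in BM-derived CD44low and 22.5 and 39.5 TPM in BM-derived CD44high cells. The lung-derived libraries had 62.2 and 135 TPM (CD44low) and 96.7 and 44.9 TPM (CD44high), so that replicates of a group differed by as much as the groups. Lung was 1.01 above LN and BM (standard error 0.31, adjusted p = 0.0166), a difference of 0.74 (adjusted p = 0.0988 and 0.0908) without either of the 2 highest lung libraries. *Ctnnd1* values are uncertain, because 4482 of its exonic bases (61.2%) are shared with the same-strand read-through gene *Gm28635*, listed at 0 to 9.57 TPM. The 2 libraries with the most *Gm28635*, the second lung CD44low (9.57 TPM) and the first lung CD44high library (6.13 TPM), were also the 2 highest in *Ctnnd1*.

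Where an adjusted p under 0.05 was asked for without a fold threshold, catenins joined the cadherins in several comparisons, but shares of all genes that passed were large too. Against MFP, *Cdh1* passed in LN-derived CD44low and CD44high cells, 1 of 6 genes in each (14% and 23.8% of all genes). *Cdh1* and *Ctnna1* passed in BM-derived CD44low and CD44high cells, 2 of 6 (23.2% and 27%). In lung-derived CD44low cells 5 of 6 genes passed, all but *Ctnnd1* (45%), and in lung-derived CD44high cells *Cdh1* and *Cdh11*, 2 of 6 (36.1%). Between the lung-derived groups 3 of 6 passed, *Cdh2*, *Cdh11* and *Ctnnb1* (30.7%), and in lung against LN and BM 5 of 6, all but *Ctnna1* (59.9%). The tests of the CD44 difference gave *Cdh2* and *Cdh11*, 2 of 6, for lung against LN (19.5%) and lung against BM (15.3%). In the remaining 3 comparisons, CD44high against CD44low cells of LN (0.378%) and of BM (0.15%) and BM against LN (1.81%), 0 of 6 passed, and the only unadjusted p under 0.05 was that of *Ctnna1* in BM against LN (0.0287).

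The summed catenin level was above the summed cadherin level in every library. The summed TPM of the 3 catenins was 1.98 to 4.92 times that of the 20 cadherins in MFP, LN, BM and lung-derived CD44high libraries, and 8.08 and 10.1 times in lung-derived CD44low libraries, where the cadherin sum was lowest. RNA levels say nothing of protein at the membrane.

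**Figure D3:**
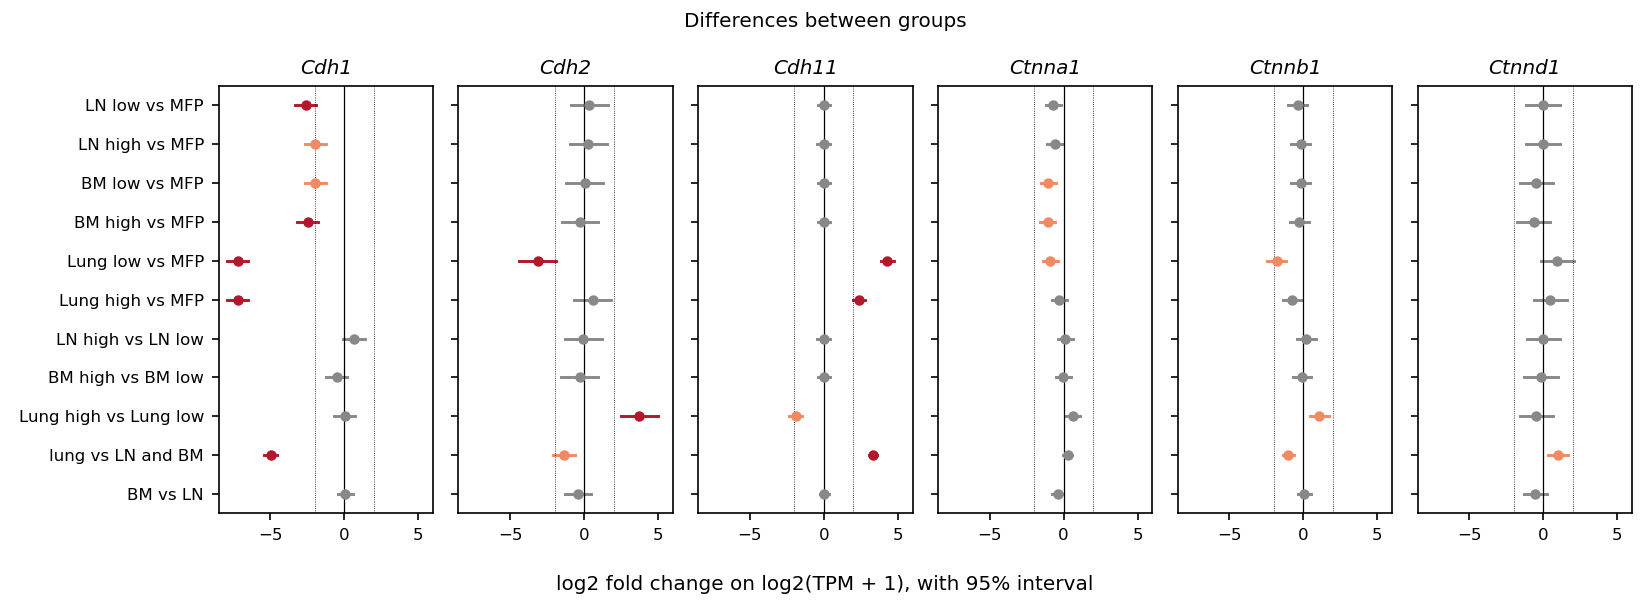
Log2 fold changes on the log2(TPM + 1) scale (x axis) of the 6 tested genes in 11 comparisons (rows), with 95% intervals from limma; vs means against, and low and high stand for CD44low and CD44high. Dark red marks calls (beyond the dotted lines at 2 and -2 with an adjusted p under 0.05), orange an adjusted p under 0.05 within those lines and grey the rest: calls fall on the 3 cadherins alone.

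The other genes of the pathway were taken from 6 fixed lists. Of 13 other cadherins, 3 were tested: *Cdh18* was called higher than MFP in lung-derived CD44low cells, at 2.08 and 4.35 TPM against a listed 0 in MFP, LN and BM (1.62 and no longer called without the second of these libraries), which made 1 of 3 called, against 11.2% of all genes higher and 7.62% lower, while *Cdh19* and *Cdh24* stayed at or below 3.53 TPM. *Cdh5*, the endothelial VE-cadherin, had at most 0.08 TPM.

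Of 21 further catenins and junction partners, 19 were tested, and 5 were called higher and 2 lower than MFP in lung-derived CD44low cells, against 11.2% and 7.62% of all genes, with a list median of -0.07 against 0.00 for all genes. Among these, the call of *Arvcf* (2.07) was lost without the second lung CD44low (1.97) or the second MFP library (1.94). That of *Pkp4* (-2.12) was lost without the first lung CD44low library (-2.09). In lung-derived CD44high cells 1 was called higher and 0 lower, against 5.42% and 8.03% of all genes, and 0 were called in LN CD44low, LN CD44high, BM CD44low and BM CD44high cells, against 4.79%, 6.12%, 7.16% and 7.67% of all genes. *Zyx*, which encodes the actin-linked adhesion protein zyxin, had 1905 and 2333 TPM in lung-derived CD44low and 140.7 and 140.6 TPM in lung-derived CD44high cells, with 116 and 75.5 TPM in MFP, and was 4.48 higher than MFP in the CD44low cells (adjusted p = 0.00256). *Ctnna2*, which encodes the neural αN-catenin, had 9.74 and 12.03 TPM in lung-derived CD44low cells and at most 0.03 TPM in the other 12 libraries. *Arvcf* and *Pkp4*, relatives of p120-catenin, went opposite ways between lung-derived CD44high and CD44low cells, by -2.89 (adjusted p = 1.07e-05) and 3.23 (adjusted p = 0.00123). *Jup*, the β-catenin relative plakoglobin, was not singled out by the rule for named genes, and it had 195 and 192 TPM in MFP against 32.2 to 162 TPM elsewhere.

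Transcription factors known to repress *Cdh1* were mostly higher in lung-derived CD44low cells, where 5 of the 7 tested passed the call above MFP and 0 below, against 11.2% and 7.62% of all genes, with a median of 2.64 against 0.00. In lung-derived CD44high cells 2 passed the call above and 1 below MFP, against 5.42% and 8.03% of all genes, and the list median was 0.01. In LN-derived CD44low cells 2 (*Zeb1* and *Zeb2*) were called higher, against 2.07% of all genes, and in BM-derived CD44low cells 1 (*Zeb1*), against 3.99%. In LN-derived CD44high and BM-derived CD44high cells 1 (*Snai1*) was called lower, against 3.68% and 4.03%. Each of these calls was lost without at least 1 of the 4 libraries compared. In LN-derived CD44low cells *Zeb1* was 1.87 without the second MFP and *Zeb2* 1.49 without the first LN CD44low library, and *Zeb1* was 1.26 in BM-derived CD44low cells without their second library. *Snai1* was -1.39 and -1.69 in the LN- and BM-derived CD44high cells without the first MFP library. The call of *Tcf3* in lung-derived CD44low cells (2.23, adjusted p = 0.0209) was lost without any 1 of the 4 libraries (adjusted p = 0.0642 to 0.111). *Zeb1* had 46.1 and 50.0 TPM in lung-derived CD44low and 58.6 and 38.7 TPM in lung-derived CD44high cells, 1.32 to 9.25 TPM in LN and BM, and 0.61 and 0.20 TPM in MFP, and was 3.38 higher in lung than in LN and BM (adjusted p = 6.29e-06). *Zeb2* had 16.6 to 41.5 TPM in lung, 3.40 to 12.5 TPM in LN and BM and 1.05 and 1.02 TPM in MFP. *Snai1*, in contrast, had 58.4 and 50.6 TPM in lung-derived CD44low cells, 0 and 0.07 TPM in lung-derived CD44high cells and 9.67 and 3.44 TPM in MFP. Between lung-derived CD44high and CD44low cells *Snai1* differed by -5.74 (limma, adjusted p = 5.94e-06). *Tcf3* was also lower in lung-derived CD44high than CD44low cells, with a log2 difference of -3.17 (adjusted p = 0.00558).

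Among 15 β-catenin destruction and nuclear partners, 3 were called higher and 0 lower than MFP in lung-derived CD44low cells, against 11.2% and 7.62% of all genes, and 1 higher and 0 lower in lung-derived CD44high cells, against 5.42% and 8.03%. List medians were 0.87 and 0.37 against 0.00 and -0.04 for all genes. In BM-derived CD44low cells 2 (*Bcl9* and *Lef1*) were called higher, against 3.99% of all genes. In LN-derived CD44high and BM-derived CD44high cells 1 each (*Lef1*) was called higher, against 2.44% and 3.64%, in LN-derived CD44low cells 0, against 2.07%. In LN CD44low, LN CD44high, BM CD44low and BM CD44high cells 0 were lower, against 2.72%, 3.68%, 3.17% and 4.03% of all genes. *Bcl9*, a coactivator of β-catenin, had 42.8 and 44.2 TPM in lung-derived CD44low, 31.0 and 20.8 TPM in lung-derived CD44high and 0.94 and 0.99 TPM in MFP. It was also called higher than MFP in BM-derived CD44low cells, by 2.70 (adjusted p = 0.0177), where the second library had 31.2 TPM, against 1.34 to 4.06 TPM in the other 7 LN and BM libraries. Without that library the difference was 1.36 (adjusted p = 0.0321), and without either MFP library the call was lost too (adjusted p = 0.0848 and 0.0821). *Tcf7l2*, a DNA-binding partner, was called higher than MFP in lung-derived CD44low cells, by 2.65 (adjusted p = 0.0151), at 66.3 and 90.0 TPM (MFP 9.94 and 13.2 TPM), and *Gsk3a*, a kinase of the destruction complex, by 2.49 (adjusted p = 0.0101). The call of *Tcf7l2* was lost without any 1 of the 4 libraries compared (adjusted p = 0.05 to 0.094), and that of *Gsk3a* without the second lung CD44low or the second MFP library (adjusted p = 0.0716 and 0.0624). In the second BM CD44low library *Tcf7l2* had 54.4 TPM and *Gsk3a* 14.8 TPM, the highest of LN and BM. *Lef1*, another DNA-binding partner, had 2.20 to 9.98 TPM in LN and BM, at most 0.58 TPM in lung, and was listed at 0 in MFP.

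Of 8 target genes of β-catenin, 5 were tested, and 1 was called higher than MFP in lung-derived CD44high cells, against 5.42% of all genes, and 0 in lung-derived CD44low cells, against 11.2%, with 0 lower in both. In LN-derived CD44low and BM-derived CD44high cells 1 each (*Tnfrsf19*) was called higher, by 2.62 and 2.03, against 2.07% and 3.64% of all genes, and the second call was lost without the first BM CD44high library (1.69). The lung-derived groups had list medians of 0.58 and 0.03 against -0.04 and 0.00 for all genes. That gene was *Notum*, which encodes a secreted Wnt inhibitor, with 22.8 and 13.2 TPM in lung-derived CD44high cells and at most 0.18 TPM in the other 12 libraries, 4.10 higher than in lung-derived CD44low cells (adjusted p = 4.86e-07). *Axin2*, the common readout of the pathway, had 2.97 and 2.39 TPM in lung-derived CD44high cells and 0.05 to 1.88 TPM elsewhere, 1.65 above MFP (adjusted p = 0.00432) and short of the threshold. Its CD44 difference in lung exceeded that in LN by 1.69 (adjusted p = 0.0365), short of the threshold, and that in BM by 2.16 (adjusted p = 0.0135), a call. That call was lost without the second BM CD44low library, which had 1.88 TPM against 0.15 TPM in the first (1.5, adjusted p = 0.00462), and without the first library of either lung group (adjusted p = 0.0574 and 0.0505). *Tnfrsf19* had 0.94 to 7.48 TPM in LN and BM and at most 0.16 TPM in MFP and lung. Of 7 genes of cadherin turnover, 0 were called against MFP in lung-derived CD44low or CD44high cells, against 18.8% and 13.5% of all genes, with list medians of 0.62 and 0.24 against 0.00 and -0.04. *Src*, a kinase that acts on the cadherin complex, was 2.25 lower in lung-derived CD44high than CD44low cells (adjusted p = 0.0331), a call lost without any 1 of the 4 libraries (adjusted p = 0.0712 to 0.162). *Furin*, which cleaves cadherin precursors, was 2.24 higher in lung than in LN and BM (adjusted p = 0.000186), and 1.96 higher without the first lung CD44high library.

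In single cells, levels were taken as counts per 10000 summed over cells that passed the filter of the study (over 250 genes, under 10% mitochondrial counts), 1236 in lungH, 348 in lungL and 2562 in lymphH, with 2210623, 2220759 and 5287425 counts. The study states a lower number for each library, most so in lymphH, but these do not add up to the total it states, which lies near the sum kept here, and whether the cells are the same was not tested. There was 1 table for each group, so no test was made, and exact Poisson 95% intervals cover counting error only. Cells were numbered in the deposited tables, and barcodes shared between tables could not be counted. Counts come from transcript ends, so genes are compared between libraries and not with each other.

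*Cdh1* had 0 counts in lungH and in lungL, which allows up to 0.0136 and 0.0135 counts per 10000 at the limit of 3 counts (0.0167 and 0.0166 as the upper bound of the exact Poisson interval), and 196 counts in lymphH, 0.371 per 10000 (interval 0.321 to 0.426), in 95 of 2562 cells. *Cdh2* had 3.03 (2.80 to 3.26), 1.15 (1.02 to 1.30) and 3.14 (2.99 to 3.29) counts per 10000 in lungH, lungL and lymphH, so that lungL lay below lungH and lymphH in these summed counts. *Cdh11* had 0.797 (0.684 to 0.923) in lungL, 0.466 (0.380 to 0.565) in lungH and 0.148 (0.117 to 0.184) in lymphH. The order of *Cdh11* was the same as that of the means of the bulk groups with the same labels. *Cdh1* was highest in lymphH, as in bulk, but gave no order of lungH and lungL, both at 0 counts. *Cdh2* was lowest in lungL, as in bulk, while its lungH and lymphH intervals overlapped. Whether the lungL cells and the lung CD44low bulk libraries are the same lines is open to doubt, because several genes differed widely between them. *Dcn* raised the same doubt for lungH and the lung CD44high bulk libraries.

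Some single-cell values stood apart from the bulk levels. *Cdh11* had 78 counts in 60 lymphH cells although the LN-derived CD44high bulk libraries were listed at 0, and its level was 0.166 per 10000 in lymphH cells with a *Cdh1* count and 0.142 in those without. *Cdh13* had 103 counts in lungL, 0.464 per 10000 (0.379 to 0.562), in 46 of 348 cells, and 0 counts in lungH and lymphH. *Cdh3* had 14, 16 and 21 counts, *Cdh6* 4, 3 and 17 counts, and *Cdh4* 0 counts in lungH, lungL and lymphH. The lungL table also held 22 counts of *Dcn* (0.0991 per 10000), a gene at 4091 and 4315 TPM in the bulk libraries of that label. In lungH *Dcn* had 0 counts (upper bound 0.0167 per 10000), but 166 and 78.9 TPM in the lung-derived CD44high bulk libraries. *Chodl* had 4 counts in lungL and 10 in lungH, but 300 and 438 TPM in lung-derived CD44low and 33.9 and 25.6 TPM in lung-derived CD44high bulk libraries. *Lum*, a proteoglycan of connective tissue, and *Wt1*, a mesothelial transcription factor, had 0 counts in lungL, but 362 and 217 TPM and 18.2 and 22.1 TPM in the lung CD44low bulk libraries. The lungL fibroblast genes summed to 21.4 per 10000 against 0.267 in lungH and 0.115 in lymphH. The myoepithelial or basal genes summed to 47.7 per 10000 in lungL, 0.158 in lungH and 0.204 in lymphH. In lungL the keratins of this list, *Krt5*, *Krt14* and *Krt17*, had 0 counts. *Epcam* had 3, 0 and 936 counts in lungH, lungL and lymphH. *Cd44* had 4.99 (4.70 to 5.29), 8.51 (8.13 to 8.90) and 4.49 (4.31 to 4.67) counts per 10000 in lungH, lungL and lymphH. Its RNA was thus highest in the library labelled CD44low.

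The catenins were detected in all 3 libraries. *Ctnna1* had 3.30 (3.06 to 3.55), 4.54 (4.27 to 4.83) and 2.54 (2.41 to 2.68) counts per 10000 in lungH, lungL and lymphH, and *Ctnnd1* 2.95 (2.73 to 3.19), 3.34 (3.11 to 3.59) and 2.02 (1.90 to 2.14). *Ctnnb1* had 10.1 (9.65 to 10.5), 8.63 (8.25 to 9.03) and 4.88 (4.70 to 5.08). All 3 were lowest in lymphH, whereas bulk *Ctnnb1* was higher in LN-derived CD44high than in either lung-derived group, and bulk *Ctnna1* was higher in LN-derived CD44high than in lung-derived CD44low cells. The order of lungH and lungL in *Ctnnb1* turned when the mean of per-cell values was taken, at 6.61 and 7.44.

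Cells differed in depth, with a median of 557, 4011 and 585 counts in lungH, lungL and lymphH, so shares of cells with a count were compared after each cell was thinned to 500 counts, which left 948, 314 and 1903 cells and dropped 288, 34 and 659. *Cdh2* was then found in 9.28% (exact binomial 95% interval 7.51 to 11.3), 5.41% (3.19 to 8.53) and 8.09% (6.91 to 9.41) of cells, so that the interval of lungL overlapped with both others (unthinned 18.9%, 33.3% and 15.3%), and *Ctnnb1* in 21.1%, 27.7% and 12.7% (unthinned 28.7%, 64.4% and 20.3%). *Cdh11* was found in 2.00% (1.21 to 3.11), 3.50% (1.76 to 6.18) and 0.736% (0.403 to 1.23) of thinned cells, with overlap between lungH and each of the others (unthinned 5.02%, 20.7% and 2.34%), with 11 to 19 cells behind each share. *Cdh1* was found in 0.893% of thinned lymphH cells (exact binomial 95% interval 0.521 to 1.43) and in none of lungH and lungL, whose exact upper bounds were 0.388% and 1.17%. The thinned shares of lungL and lymphH thus could not be told apart, whereas the summed counts of *Cdh1* (0 and 196) lay outside each other's intervals.

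**Figure D4:**
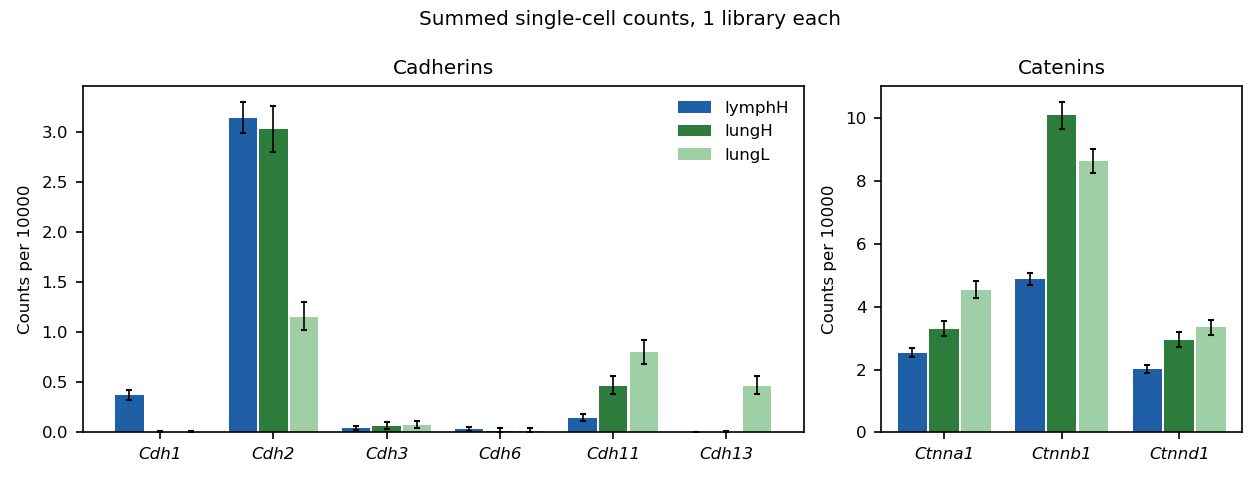
Counts per 10000 (y axis) summed over the kept cells of lymphH, lungH and lungL (bars) for 6 cadherins on the left and the 3 catenins on the right, with separate y axes from 0. Error bars are exact Poisson 95% intervals: *Cdh1* is seen in lymphH alone, *Cdh13* in lungL alone, and *Cdh4*, with 0 counts in all 3 libraries, is not drawn.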

How the data were processed

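Bulk RNA of 14 libraries was reverse transcribed with a modified SMART-seq2 protocol. The authors mapped the reads to mm10 (STAR), estimated transcript levels from the GENCODE annotation (RSEM) and deposited TPM values, which keep no record of depth beyond the stated minimum. For single cells, the authors deposited unfiltered counts per gene and cell from 3 ddSeq libraries, quantified with kallisto, and the kept cells held 69.2% to 92.9% of the counts. Symbols came from the lungH matrix, and positions from GENCODE vM21, which held all 55450 identifiers. The genes, lists and rules were chosen with earlier results of these data known.

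log2(TPM + 1) of 15348 genes was fitted with limma 3.58.1 (lmFit and eBayes with trend, R 4.3.3) with 1 mean for each of 7 groups, leaving 7 residual degrees of freedom, which gives adjusted p-values for groups of 2. The log2(TPM + 1) scale understates changes of low genes. The procedure was tested on simulated data. The study itself used edgeR on a count matrix not analysed here.

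Named genes are the 10 genes, up to 4 genes of each pathway list called in most comparisons, and for *Cdh1*, *Cdh2* and *Cdh11* the 3 genes with the highest correlation. Lists were other cadherins, catenins and junction partners, β-catenin destruction and nuclear partners, β-catenin target genes, E-cadherin repressors, cadherin turnover (7 genes found), and markers of epithelial, fibroblast, myoepithelial or basal, macrophage, endothelial, mesothelial and Schwann or neural cells. The last lists beside epithelial, fibroblast and endothelial summed to 16.4 to 742 TPM (myoepithelial or basal), 11.0 to 267 TPM (macrophage), 3.79 to 414 TPM (mesothelial) and 0.83 to 24.2 TPM (Schwann or neural). The macrophage sum was mostly *Cd14*, at up to 262 TPM, while *Ptprc* had at most 0.20 TPM, *Fcgr1* at most 0.09 TPM and *Adgre1* 0. The highest mesothelial sums were almost all *Msln* in MFP, at 309 and 414 TPM, where *Upk3b* and *Wt1* were at 0. The Schwann or neural sum was mostly *Mbp*, with *Sox10* at most 0.16 TPM. Doublets were not called. Most single-cell values were sums over cells, but shares of cells, means of per-cell values and the *Cdh11* level by *Cdh1* count could be affected by doublets. In lymphH, cells with a *Cdh1* count had a median of 15132 counts against 580 in the others. Data were handled with the R package data.table in version 1.17.8, Python 3.11.15, numpy 2.4.6, pandas 2.3.3 and scipy 1.17.1, and figures with matplotlib 3.10.9.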

Additional observations from a re-analysis of the deposited data

Results flagged for a closer look

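These 4 results were set apart because the difference between CD44high and CD44low cells differed between organs at an adjusted p under 0.05 (limma). *Cdh2* was higher in CD44high than in CD44low lung-derived cells, and this difference exceeded that in LN-derived cells by 3.81 and that in BM-derived cells by 4.05 on the log2(TPM + 1) scale. The value against LN was 2.88 without the first and 4.73 without the second LN CD44low library. *Cdh11* went the other way, with interaction values of -1.89 against LN and -1.90 against BM, both short of the fold threshold. Since LN and BM libraries had at most 0.03 TPM of *Cdh11*, no CD44 difference could be seen there. These values thus repeat the lung difference of -1.91 and do not tell whether CD44 status acts differently between organs. All 4 rest on the lung-derived libraries, in which *Epcam* was at or near 0 and the fibroblast gene sum differed between the CD44low (4710 and 5120 TPM) and CD44high (85.7 and 195 TPM) groups. The part of that difference in these results was not tested.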

How the results depend on the processing

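Of the log2 fold changes of the 6 genes in 13 bulk comparisons, the 25 with an adjusted p under 0.05 kept their sign in the alternatives run, and 26 of the other 53, at most 0.60 in size, turned in at least 1. Signs of these 53 and calls of the other pathway genes without each library were followed after the data were seen. In single cells the order of lungH and lungL in *Ctnnb1* turned with the mean of per-cell values (6.61 and 7.44, against 10.1 and 8.63). Leaving out the 4 lung libraries, a fit added after the data were seen, left the LN and BM counts as they were. With the adjusted p alone as the threshold, the called genes numbered 1 in LN-derived CD44high, 2 in BM-derived CD44low, 2 in BM-derived CD44high and 5 in lung-derived CD44low cells against MFP, 3 in lung-derived CD44high against CD44low cells, 5 in lung against LN and BM, and 2 in each test of the CD44 difference in lung against LN and BM, where 15.3% to 59.9% of all genes passed. The count fell to 0 in LN-derived CD44low cells when only the groups compared were fitted, and to 0 in BM-derived CD44high cells after median-ratio scaling. A pseudocount of 0.1 gave 2 called genes in lung-derived CD44high against CD44low cells and 2 in the CD44 difference of lung against BM, as *Cdh11* passed the threshold, while the share of all genes called rose from 11.3% to 17.4% and from 8.66% to 11.7%.

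In the 14 fits that each dropped a library, the count was 0 to 1 in LN-derived CD44high cells (1 without the second LN CD44high or the first MFP library) and 0 to 1 in BM-derived CD44low cells (1 without the second BM CD44low or the first MFP library), in each case *Cdh1*. It was 1 to 2 in lung-derived CD44high against CD44low cells and 1 to 2 in each test of the CD44 difference, with *Cdh11* added without the first library of either lung group. The lone library of a group was then assumed to vary like the others.

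The replicate numbers showed little sign of pairing samples over all groups: over 21 pairs of groups, the deviations of same-numbered libraries correlated at -0.194 to 0.168, and 3 pairs exceeded 0.1. Pairs of CD44low and CD44high cells of the same organ were not examined apart, so whether these share a mouse is not settled. With the replicate block, all 13 counts of called genes were unchanged, for example 3 in lung-derived CD44low cells against MFP. In median-ratio scaling the balance of higher and lower calls over all genes turned against MFP in LN CD44low (318 and 417 became 360 and 328), LN CD44high (375 and 565 became 511 and 361) and BM CD44high cells (558 and 619 became 730 and 395), and in lung against LN and BM (1095 and 851 became 864 and 1030). In single cells, 3 of the 10 genes (*Cdh1*, *Cdh2* and *Cdh6*) were highest in lymphH, and 2 or 3 under 5 other cell filters and averages. Depth is unknown for the TPM values, and 1 library per group limits the single-cell values to counting error.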
